A study of Mus musculus with 8 samples.

Results

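The summits of small MNase-protected structures in wild-type (WT) condensing spermatids were set against the nucleosome summits of WT round spermatids, the stage before, on the 19 autosomes. The 2 lists held 5291731 small-structure summits and 5322422 round spermatid summits, 10614153 of the 36905351 autosomal summits in the 8 lists of the series. Both came from testis cells of mice labelled WT, enriched for the stage named, with no age or strain given in the sources used here. The other lists were WT and H2A.L.2-less spermatocytes, H2A.L.2-less round spermatids, condensing nucleosomes of both genotypes and small structures of H2A.L.2-less cells. H2A.L.2 is a testis-specific histone variant, and "H2A.L.2-less" animals lack it. Every list came from 1 library, so no difference between lists has a replicate check and no test was made. Intervals cover counting error only, and SDs over autosomes describe the spread along the genome.

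Micrococcal nuclease (MNase) digests DNA that is not protected by protein, so the fragments left over mark where proteins sat. In round spermatids, the haploid cells that follow meiosis, DNA is still wrapped around histone octamers in nucleosomes. In condensing spermatids the histones are exchanged for transition proteins and then protamines, and MNase then leaves, beside fragments of nucleosome size, a class of smaller fragments. The small fragments were about 40 to 80 bp long and the nucleosome-sized ones about 130 to 170 bp, and electrophoresis separated them before sequencing. What protected the small fragments is not identified by these lists. The question was where the small structures sat relative to the nucleosomes that had been mapped on the same DNA at the stage before.

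The lists differ in scale. A summit value is the coverage at the top of a position and has no common scale between libraries. The first percentile of the summit values was 272 in the small-structure list and 176 in the round spermatid list, and the medians were 492 and 240. The lowest single values were 80 and 56. The fuzziness score, by which the position caller rates the scatter of fragments about a summit, had medians of 52.5 and 53.2. Per the series description each sample had from 207000000 to 753000000 reads, and the depth of each library is unknown. A site missing from a list may have been covered too thinly to be called.

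Small structures were found close to former nucleosome summits more often than chance gives. A round spermatid summit was present within 40 bp of 42.4% of the small-structure summits, and of 24.5% after the small-structure list had been moved by 5 kb, the measure of chance used throughout. The matched share was thus 1.73 times chance, with a 95% Wilson half-width of 0.0421 percentage points. In the other direction, 42.2% of round spermatid summits had a small-structure summit within 40 bp (chance 24.4%). Summits of a list were at least 100 bp apart, so these were the same 2243852 pairs divided by the length of the other list. The 2 directions are thus not separate results at this distance. The match was closest at short distances. Within 10 bp, 15.4% of small structures had a round spermatid summit against 8.08% by chance (1.90 times), and within 73 bp the shares were 63.6% and 39.9% (1.59 times).

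The nearest round spermatid summit was a median of 50 bp away, against 100 bp after the shift. The quartiles were 25 and 110 bp, against 50 and 220 bp. At the same coordinate lay 5.09% of small-structure summits (chance 2.63%). Small structures lay to the left and to the right of the matched summit about equally often (49.8% to the left), and the observed shares stayed above chance up to 70 bp. More than 500 bp from any round spermatid summit lay 2.16%, against 7.76% after the shift, so the lists also shared the stretches in which positions were called at all.

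**Figure D1:**
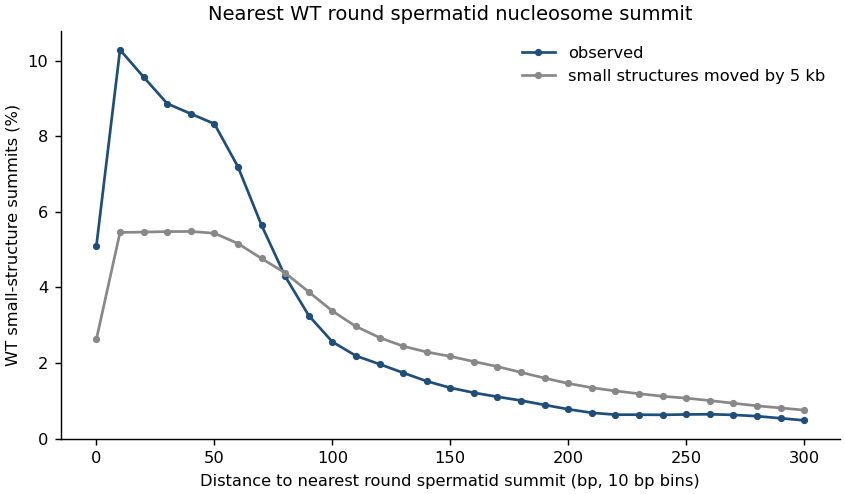
Share of WT small-structure summits (y axis, %) by distance to the nearest WT round spermatid nucleosome summit (x axis, 10 bp bins), as observed (blue) and after moving the small structures by 5 kb (grey). The observed curve is above chance up to 70 bp and below it from 80 bp on. The bin at 0 spans fewer distances than the others.

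The outline of a called position is 140 bp, 70 bp to each side of its summit. Within this outline 59.1% of round spermatid positions held 1 small-structure summit (chance 37.3%), 2.99% held 2 (chance 1.71%) and 37.9% held none (chance 61.0%). An outline with 2 small-structure summits was uncommon, and summits of a list were never closer than 100 bp, which limits how often that can be seen.

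The excess over chance was present on every autosome, and its size followed the density of positions. The matched share of small structures hardly varied, from 41.7% on chromosome 7 to 43.3% on chromosome 16 (SD 0.490 points). That of round spermatid summits ran from 37.4% on chromosome 3 to 46.3% on chromosome 11 (SD 2.31 points), where chance was 18.6% and 29.9%. Chance for small structures varied from 21.2% on chromosome 3 to 27.1% on chromosome 11, and the ratio accordingly from 2.01 on chromosome 3 to 1.55 on chromosome 11. At finer scale, 1837 of 2417 windows of 1 Mb had at least 1000 positions in both lists, and the sparser ones were left out. Among the 1837, the 369 with the fewest small structures had a median share of matched small structures of 44.1% and a chance level of 17.2% (a median ratio of 2.55), and the 367 with the most had 41.1% and 29.9% (1.38). In the same windows the median share of matched round spermatid summits was 32.0% and 53.0%, with chance levels of 12.6% and 38.5%. Chance thus differed more than the share here too. All 1837 had a ratio above 1. Their 5th percentile was 1.31 and their 95th 2.76.

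Of the windows kept, those with the extreme ratios were sparse or dense, and the 3 highest lay just above the limit of 1000 positions. On the mm9 build, chr1:67000001-68000000 had the highest ratio, with 1041 small-structure and 1552 round spermatid summits, 46.0% matched and 12.5% by chance (3.68 times). The next were chr4:89000001-90000000 (3.60 times) and chr4:19000001-20000000 (3.36 times). The lowest was chr11:118000001-119000000, with 4996 and 3868 summits, 41.8% matched and 35.8% by chance (1.17 times). It was followed by chr15:78000001-79000000 (1.17 times) and chr5:36000001-37000000 (1.18 times). Between the highest and the lowest of these windows the share of matched small structures thus differed little and chance differed much, while the share of matched round spermatid summits was 30.9% in the former and 53.9% in the latter (chance 8.38% and 46.1%).

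The height of the earlier nucleosome went with the match. In the decile of lowest round spermatid summit values, up to 184, 34.7% had a small structure within 40 bp (chance 23.1%). The share increased with each decile and was 47.2% in the highest, from 352 up (chance 23.6%), so the ratio to chance went from 1.50 to 2.00. Chance was between 23.1% and 25.1% in all deciles. Matched share minus chance was 12.1 points larger in the highest than in the lowest decile. This difference was 7.69 points when matching within 20 bp, 5.68 with equal numbers of positions per list and 2.68 with only positions from the median height up. With equal numbers and from the median up, deciles were cut anew in the shortened lists. Those differences thus span a narrower range of heights.

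The height of the small structure behaved differently. The matched share was 38.5% in the lowest decile and between 43.3% and 43.7% from the fifth decile up. Chance went from 20.5% in the lowest to 29.7% in the highest decile, so high small structures lay in stretches with more round spermatid summits. The ratio was highest in the third decile, at 1.90, and lowest in the highest one, at 1.47. Of all 100 pairings of deciles, the highest ratio to chance was 2.27, for round spermatid summits of the highest and small structures of the fourth decile. The lowest was 1.29, for the lowest round spermatid and the highest small-structure decile. Within matched pairs the heights were hardly related in rank. Spearman's rho was 0.0127 over 2243852 pairs, and 0.0121 over the 1296664 pairs that met after the shift. These rhos describe 2 libraries, and neighbouring pairs share their DNA.

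Sharp small structures were on earlier nucleosomes more often than fuzzy ones. The matched share was 41.0% in the sharpest decile of small structures, 46.0% in the third and 34.7% in the fuzziest, and chance went from 21.4% to 27.1%. The ratio was thus 2.01 in the second decile and 1.28 in the fuzziest. With summits compared only within deciles of height, the sharpest quintile exceeded chance by 21.0 points and the fuzziest quintile by 9.52. The difference had the same sign in each of the 10 height deciles. It was 7.04 points in the lowest and 16.2 in the highest. Over all deciles it was 11.5 points, and 3.96 when matching within 73 bp.

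For round spermatid summits the relation to fuzziness was not stable. At 40 bp, within height deciles, the sharpest quintile exceeded chance by 18.0 points, the second by 20.1 and the fuzziest by 14.3. The difference between the sharpest and the fuzziest quintile was 3.67 points, but -5.71 points when matching within 73 bp and -0.79 points among positions at or above the median height of each list. It was -1.09 points in the lowest height decile and 8.79 in the highest.

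Fuzziness was shared within pairs. Spearman's rho between the fuzziness of a small structure and that of its matched round spermatid summit was 0.294, against 0.0479 for pairs that met after the shift. Both scores come from the same caller on the same DNA, and whether base composition or alignability moves with them was not tested.

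**Figure D2:**
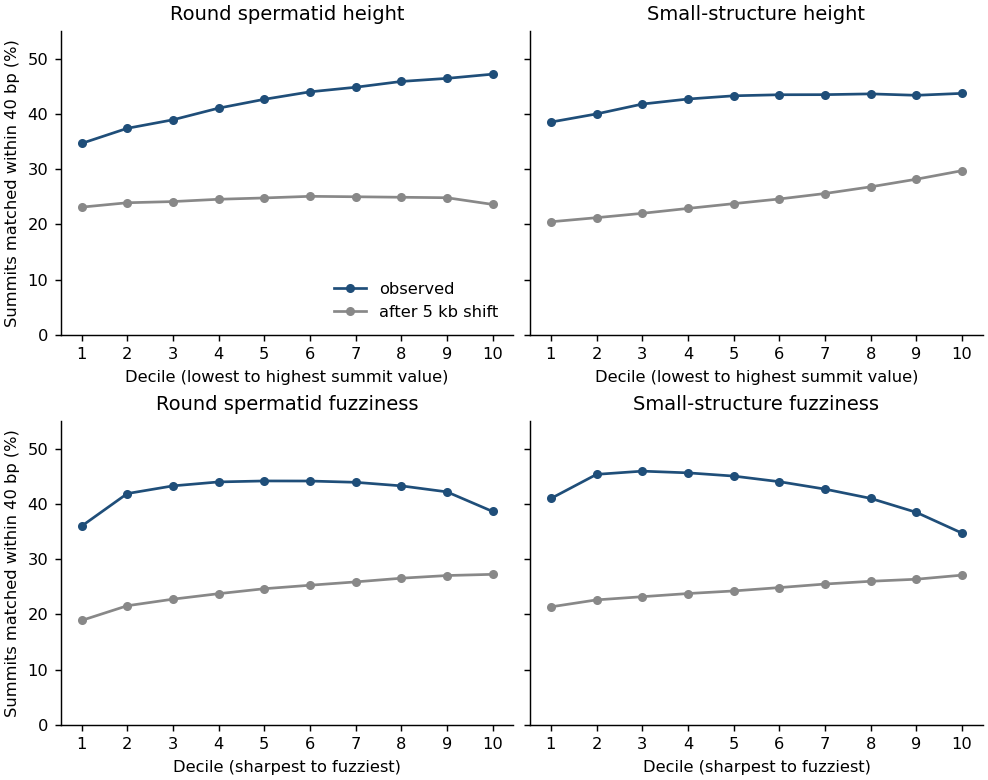
Share of summits matched within 40 bp (y axis, %) by decile of summit value (top) and of fuzziness (bottom), for WT round spermatid summits (left) and WT small structures (right), observed (blue) and after a 5 kb shift (grey). The distance between the curves widens with the height of round spermatid summits, from 34.7% against 23.1% to 47.2% against 23.6%, and narrows with the fuzziness of small structures.

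Beyond the first neighbour of a round spermatid summit, the small structures kept a similar spacing but were most frequent between the nucleosome sites. Density was counted in 10 bp bins and divided by the density after the 5 kb shift. Small structures stood at 1.94 on the summit, at 0.942 at a distance of 100 bp and at 1.16 at 180 bp. Beyond that their maxima, after smoothing over 5 bins, were at 290, 470, 650 and 840 bp. Round spermatid summits counted around themselves had maxima at 180, 370, 560, 740 and 930 bp and minima at 280, 460, 650 and 840 bp. From the second neighbour outward, small structures were thus most frequent midway between the preferred nucleosome sites and least frequent (380, 560, 750 and 930 bp) on or next to them.

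This alternation was seen on every autosome. The mean small-structure density from 270 to 310 bp was 1.19 and that from 350 to 390 bp was 0.992, a ratio of 1.20 ± 0.0144 (SD over 19 autosomes). The ratio ran from 1.18 to 1.22 on single autosomes. For round spermatid summits around themselves it was 0.560 ± 0.0102 and below 1 on all 19. The ratio was 1.31 around the highest decile of round spermatid summits and 1.14 around the lowest. From 800 to 1000 bp the small-structure density averaged 1.04, compared with 1.94 on the summit.

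The curve was then divided by whether the small structure itself lay on a round spermatid summit. Small structures within 40 bp of some summit followed the nucleosome sites, with maxima at 180, 370, 560, 740 and 930 bp. Those farther from any summit had maxima at 280, 470, 650 and 840 bp, and stood at 1.35 from 270 to 310 bp against 0.834 from 350 to 390 bp. The division fixes part of this, since small structures away from summits cannot fall on them. The undivided curve does not depend on it. In it the second kind prevailed from the second neighbour outward, and the first kind on the summit (1.94) and at 180 bp (1.16).

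**Figure D3:**
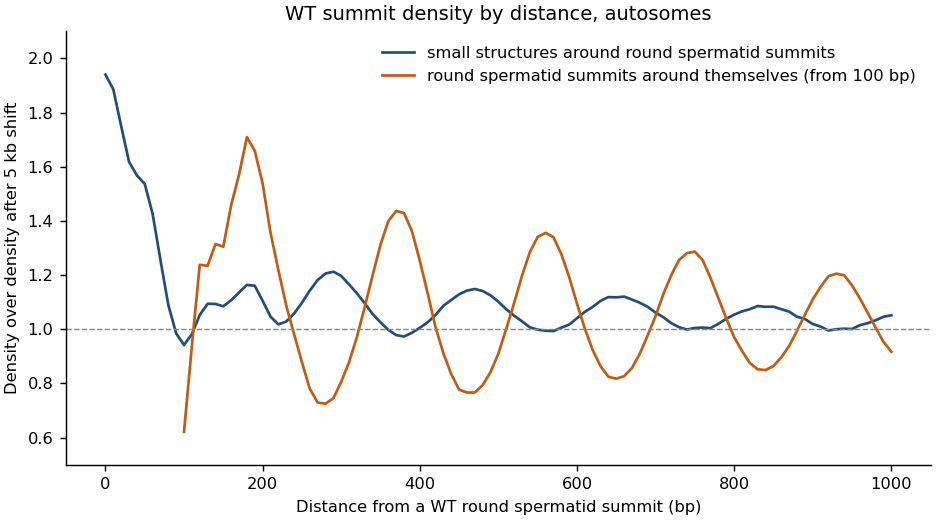
Density of WT small-structure summits (blue) and of WT round spermatid summits (orange) by distance from a round spermatid summit (x axis, bp), each divided by its density after a 5 kb shift (y axis, where 1, dashed, is no enrichment). Small structures peak on the summit at 1.94, and beyond 230 bp their maxima fall on the minima of the round spermatid curve.

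Regular arrays were then examined. An array was a run of at least 5 consecutive round spermatid summits with all gaps from 150 to 220 bp. There were 49544 arrays with 286539 members, 5.38% of round spermatid summits, with a median gap of 190 bp. Array members had a small structure within 40 bp in 49.6% of cases (chance 33.2%), a ratio of 1.49. Summits with no neighbour at such a gap had one in 39.3% (chance 22.2%), a ratio of 1.77. The raw share was higher in arrays and the ratio lower, as the shifted share was higher in arrays too. The excess over chance was 16.4 points in arrays and 17.2 points outside. This difference of -0.74 points changed sign with the settings, to 0.34 points when matching within 73 bp and to 5.74 points with positions at or above the median height.

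Longer runs had higher shares and lower ratios. The share increased from 43.2% in runs of 2 summits to 51.4% in runs of 10 or more. Chance increased faster, from 24.6% to 38.8%, and the ratio declined from 1.76 to 1.33. Shares differed little by place within the array. The end members were matched in 49.1% of cases, the next in 49.8%, and those at least 3 places from an end in 50.1% (chance 33.0%, 32.6% and 37.0%, ratios of 1.49, 1.53 and 1.36). Members that far from an end occur only in the longer runs, where chance was higher. Place was not compared within runs of equal length.

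Along the gap between neighbouring array members, small structures were most in excess at the summits. The way from a summit to the midpoint of the gap was divided into 5 equal stretches. In the stretch next to a summit there were 20.7 small-structure summits per 100 gaps (chance 12.7, a ratio of 1.63). The ratio was 1.45, 1.40 and 1.28 in the following ones. In the stretch at the midpoint, the DNA linking the nucleosomes, there were 15.8 (chance 14.5), a ratio of 1.09. Around members with at least 2 further members on each side, small-structure maxima were at 180 and 340 bp, near the neighbours that define the run. Further maxima were at 660 and 840 bp, at the minima of the round spermatid curve around the same members (650 and 840 bp). The density ratio of 270 to 310 bp over 350 to 390 bp was 0.955 around these members, so the alternation was not seen at that distance in arrays. Around summits with no neighbour at an array gap it was 1.19, and the density at 180 bp was 0.881.

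**Figure D4:**
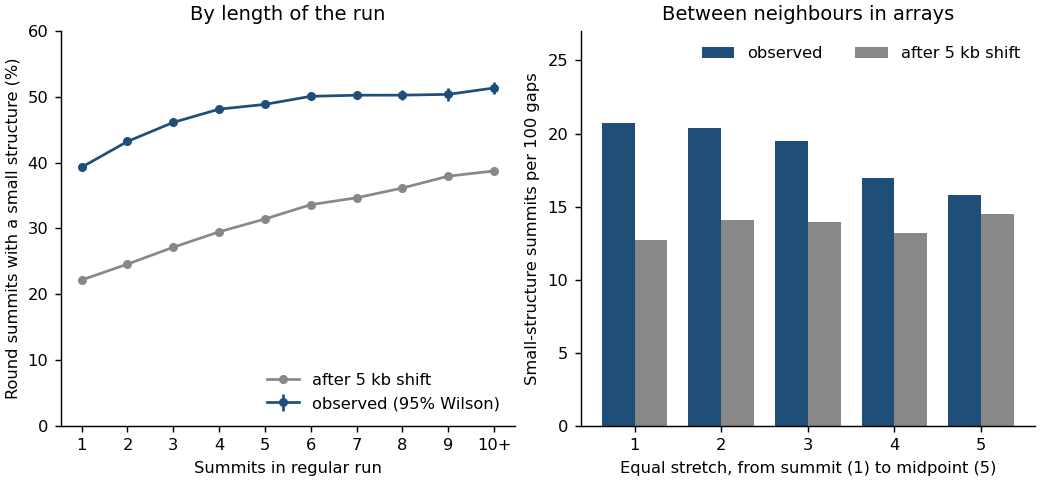
Left, share of WT round spermatid summits with a WT small structure within 40 bp (y axis, %) by number of summits in the regular run (x axis), observed with 95% Wilson intervals (blue) and after a 5 kb shift (grey). Right, small-structure summits per 100 gaps between array neighbours (y axis) in 5 equal stretches from a summit to the midpoint (x axis): 20.7 against 12.7 next to the summit and 15.8 against 14.5 at the midpoint.

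Matched array members were only weakly grouped. Where a member was matched, the following one was matched in 53.4% of cases, and where it was not, in 46.1%. For the member 2 places on, the shares were 50.5% and 48.9%. After the shift they were 42.0% and 28.9% for the next member and 38.9% and 30.6% for the second, so moved small structures made neighbours more alike than those in place. Complete arrays were uncommon. In 3.20% of arrays every member was matched (chance 0.840%), and in 3.64% none was (chance 19.3%).

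Small structures inside arrays were dense, high and fuzzy. Between the first and last summits of arrays there were 5.09 per kb, and 3.73 after the shift. Their median summit value was 628, against 488 outside, and their median fuzziness 55.1 against 52.4. These medians have no shifted control, and whether they belong to arrays or to the stretches around them was not tested. Of the gaps between neighbouring small structures there, 41.7% were 150 to 220 bp (37.8% after the shift, and 31.2% outside arrays).

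The 3 longest arrays show the positions one by one. The longest, chr4:153658271-153662061 (mm9), held 21 round spermatid summits at a mean gap of 182.5 bp, with summit values from 184 to 504. Small structures numbered 25 there, with values from 396 to 1348, and 10 of the 21 nucleosomes had one within 40 bp (13 after the shift). Its highest nucleosome, at 153660181 with a value of 504 and a fuzziness of 48.0, had a small structure of value 632 at the same coordinate. The nucleosome 190 bp before it, at 153659991 with a value of 384, had its nearest small structure 50 bp away with a value of 1288. The nucleosome at 153659611 had its nearest 90 bp away, close to the middle of the linker. In this array matched and unmatched members thus stood side by side.

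The other long arrays gave the same picture. In chr4:153614301-153617981, with 20 summits at a mean gap of 186.3 bp, 9 had a small structure within 40 bp (7 after the shift) among 23 small structures. In chr9:43587851-43591591, with 20 summits at a mean gap of 189.5 bp, 10 had one (10 after the shift) among 22. The median fuzziness of small structures was 58.1, 58.5 and 57.1 in the 3 arrays, above the list's median of 52.5. In these 3 arrays the matches, 29 of 61 members, were about as many as after the shift, 30, so the excess seen over all arrays was not seen in them.

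Round spermatid summits with and without a small structure differed in other lists. The 2243852 summits with one within 40 bp had a median value of 248, against 232 for the 2015238 with none within 73 bp. In WT spermatocytes, the stage before, 56.3% of the former and 52.0% of the latter had a nucleosome summit within 40 bp (chance 23.5% and 19.0%, ratios of 2.39 and 2.74). In H2A.L.2-less round spermatids the order of the shares turned, with 41.8% of the former and 47.2% of the latter (chance 19.0% and 17.6%, ratios of 2.20 and 2.68). In WT condensing nucleosomes the shares were 27.4% and 21.7% (chance 17.2% and 13.6%) and the ratio was 1.59 for both. The ratio to chance was thus higher for summits without a small structure in 2 of these 3 lists, while the plain share was higher for them in H2A.L.2-less round spermatids alone.

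A small structure and a condensing nucleosome were called on the same former nucleosome slightly more often than the product of their shares. Of the round spermatid summits, 30.6% had a WT small structure within 40 bp and no WT condensing nucleosome, 12.9% a condensing nucleosome only, 11.6% both and 44.9% neither. The product of the 2 shares over the autosomes is 10.3%, and the overlap was 1.12 times that figure. Unlike the 5 kb shift, this product takes no account of local density of positions. With the condensing list moved by 5 kb, 17.2% of summits with a small structure still had a condensing nucleosome, against 15.8% of all. How much of the overlap goes with local density was not tested. The 2 fragment classes come from a population of cells, so both need not occur in 1 cell.

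Among the nucleosome lists, that of WT round spermatids had the highest ratio for small structures of either genotype. WT small structures matched WT spermatocyte summits in 38.5% of cases (1.64 times chance), H2A.L.2-less spermatocyte summits in 33.3% (1.59), H2A.L.2-less round spermatid summits in 26.2% (1.39) and WT condensing nucleosomes in 23.7% (1.38). Small structures of H2A.L.2-less cells matched WT round spermatid summits in 41.0% of cases (1.64 times chance), and the round spermatid summits of their own genotype in 24.5% (1.30). The WT round spermatid list thus had the higher match with both small-structure lists. The H2A.L.2-less small structures stood 0.09 below the WT ones on it. They stood below the WT ones on every nucleosome list, by 0.0647 to 0.108, so this gap was not particular to WT round spermatids. With equal numbers of positions per list, WT and H2A.L.2-less small structures stood at 1.75 and 1.69 times chance on WT round spermatids.

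The lists differ in length, so the 3748879 highest positions of each list, the length of the shortest, were also compared. WT small structures then stood at 1.75 times chance on WT round spermatids, 1.62 on WT spermatocytes, 1.38 on WT condensing nucleosomes and 1.33 on H2A.L.2-less round spermatids. The genotype difference at the round stage cannot be told apart from a difference between 2 libraries. The alternation with the nucleosome repeat did not set WT round spermatids apart. The ratio of densities at 270 to 310 bp over 350 to 390 bp was 1.20 around WT spermatocyte and 1.21 around H2A.L.2-less round spermatid summits, and 1.01 around WT condensing nucleosomes. Condensing nucleosomes around themselves gave 0.986, compared with 0.560 for round spermatid summits.

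**Figure D5:**
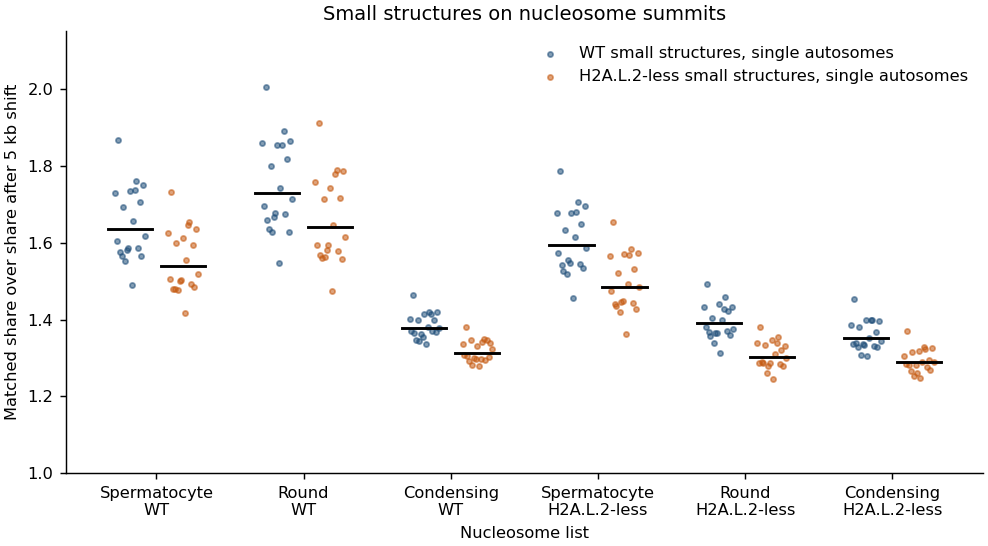
Matched share over chance (y axis, starting at 1) of WT (blue) and H2A.L.2-less (orange) small structures on the 6 nucleosome lists (x axis); points are the 19 autosomes and black lines all autosomes together. Both small-structure lists have their highest value on WT round spermatids, 1.73 and 1.64.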

How the data were processed

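DNA protected from MNase was sequenced, in 3 runs per sample merged after alignment per the series description. Bowtie2 2.2.9, deepTools 2.2.4 and mm9 are named in the submitters' processing notes. The caller's thresholds and the treatment of duplicate reads are not given in the sources used here. The deposited lists give, per the file headers, a summit per position, a summit value (a coverage signal, in multiples of 4, with no normalization to depth visible in the values) and a fuzziness score. Most summits (94.9% to 98.8% per list) fell on a grid of 10 bp, which is the resolution of the distances.

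Samples were grouped by title, with 1 library per group. A summit matched when the other list had one within 40 bp, and chance was the share after moving the small structures by 5000 bp. Deciles were cut at fixed values, so ties stay together. Named regions are the 3 longest arrays and the 3 highest and 3 lowest 1 Mb windows by ratio to chance. The members, settings and named regions were chosen with earlier results of these data known. The distance curves divided by class, the second-period ratio and the fuzziness of pairs were added after the lists were seen. Alternatives were matching within 20 or 73 bp, other shifts, higher positions only, removal of the highest 0.1%, and other array limits. No gene or sequence was placed, because no mm9 genome or annotation was used. Matching, arrays and curves were tested on simulated positions. Analyses used Python 3.11.15, numpy 2.4.6, pandas 2.3.3 and matplotlib 3.10.9.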

Additional observations from a re-analysis of the deposited data

How the results depend on the processing

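The ratio of the matched share to chance stayed between 1.59 and 1.84. For small structures on round spermatid summits it was 1.73, and 1.84 within 20 bp, 1.59 within 73 bp, 1.72 for the higher positions (from the median summit value up), 1.76 with a shift of 20 kb and 1.75 with equal numbers of positions. The share of round spermatid summits with a small structure gave 1.84, 1.59, 1.72, 1.76 and 1.75. Up to 40 bp it counts the same pairs, so it is no second check. The ratio exceeded that on WT spermatocytes by 0.0952 (0.112, 0.0897, 0.154, 0.102 and 0.137 in the same order) and that on H2A.L.2-less round spermatids by 0.340 (0.395, 0.277, 0.460, 0.355 and 0.420, and 0.343 with the shift backward). Highest minus lowest height decile was 12.1 points, and 7.69 within 20 bp, 16.1 within 73 bp, 2.68 for the higher positions, 5.68 with equal numbers and 11.8 without the highest 0.1% of positions. Sharpest minus fuzziest small structures was 11.5 points, and 9.19, 3.96, 8.02, 11.1 and 8.67 in the order used first, and 11.6 with the shift backward. For round spermatid summits it was 3.67 points, and 4.53 within 20 bp, 2.96 with a shift of 20 kb and 0.0924 with equal numbers, but reversed to -5.71 within 73 bp and -0.79 for the higher positions. Arrays minus irregular summits was -0.74 points, and -0.33 within 20 bp, -0.0415 with a shift of 20 kb, -1.28 with gaps of 160 to 210 bp and -3.88 with runs of at least 8, but reversed to 0.34 within 73 bp, 5.74 for the higher positions and 3.19 with equal numbers. The density ratio of the alternation was 1.20, and 1.20 with the shift backward, 1.24 for the higher positions and 1.23 with equal numbers. The cause of these changes was not tested.

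Choosing the higher positions or equal numbers also shortens both lists, and height deciles were cut anew within them. No paired analysis was possible because each group had 1 library. Of the alternatives, the shifts of 20 kb, equal numbers, and all those of the alternation, of the small-structure fuzziness and of the differences between lists were chosen after seeing the data. Depth is unknown, and the caller's floor, spacing and grid limit what a missing match can show.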
